A study of Mus musculus with 32 samples.

Results

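Matricellular proteins were followed through 32 primary mouse melanomas by the RNA of 10 genes, out of 50600 genes in the deposited tables. The genes were Fn1, Tnc, Spp1, Sparc, Postn, Thbs1, Thbs2, Tnn, Vcan and Sparcl1, and each was found by the Ensembl identifier that maps to its symbol. Measured values played no part in that mapping, but the 10 genes were chosen with earlier results of these data known. All 10 were expressed highly enough to be tested.

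Tumours came from 4 groups of 8, named Ecad males, Ecad females, ΔEcad males and ΔEcad females. All mice carried Tyr::NrasQ61K, an oncogene that the tyrosinase promoter drives in melanocytes, together with Cdkn2a-/+ and Cdh1F/F, in which both copies of the E-cadherin gene can be deleted by Cre. Ecad mice had no further transgene (°/°). For the ΔEcad mice the labels give Tyr::NRAS/°, where the methods of the study name Tyr::CreA/°, a Cre recombinase driven by the tyrosinase promoter. Cre of this kind acts in melanocytes, so fibroblasts, vessels and keratinocytes of a ΔEcad tumour keep Cdh1. No age was given in the labels, and nothing there says whether tumours of a group came from separate mice. The p-values therefore measure the spread between these samples.

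Matricellular proteins are secreted into the extracellular matrix, where they mostly tune how cells sense the matrix, through integrins and other receptors, more than they carry load. In healthy adult skin most are low, and in wounds and tumours they come from fibroblasts, vessel walls, macrophages and, for several members, from melanoma cells themselves. Fibronectin and versican also build the provisional matrix on which the others assemble.

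Libraries held 24036333 to 63923086 counts. Cdh1, the targeted gene, had a median of 145 TPM in Ecad males and 3.29 TPM in ΔEcad males (a share of all transcripts, scaled for gene length). Ecad females had a Cdh1 median of 30.6 TPM and ΔEcad females one of 46.7 TPM, so the RNA of the deleted gene gave no check of the female labels, on which every female direction here depends. Among the 32 libraries, 4 stood apart. The library labelled ΔEcad male 2 had Xist at 6.41 TPM and the Y-linked genes Ddx3y and Eif2s3y at 0 TPM, which goes against its sex label. Ecad female 3 had 8313 TPM of the salivary gene Bpifa2, whose median was 0.13 TPM. ΔEcad male 7 had 4.98 TPM of the pigment cell gene Dct, whose median was 11257 TPM, and the highest fibroblast and macrophage scores of the 32. ΔEcad female 3 had 0 TPM of the haemoglobin genes Hbb-bs and Hba-a1 and 0.15 TPM of the vessel gene Pecam1, against medians of 721, 243 and 29.6 TPM. In that library 5 of 9 macrophage markers were at 0 counts.

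The members spanned 3 orders of level. Sparc was highest, with a median of 1358 TPM over the 32 tumours, a level above that of all but the top percent of genes in the tables. Sparcl1 followed at 551 TPM, Spp1 at 312 TPM and Fn1 at 123 TPM. A middle group held Postn at 64.9 TPM, Thbs1 at 44.3 TPM, Thbs2 at 41.3 TPM and Tnc at 33.3 TPM. Vcan had a median of 2.57 TPM and Tnn of 1.24 TPM. Neighbours in this order overlapped in range throughout, and the ranges were wide. The highest tumour exceeded the lowest by 75.0-fold for Sparc, 109-fold for Sparcl1, 193-fold for Fn1 and 1544-fold for Spp1. On the log2 CPM scale (counts scaled to library size), the standard deviation over tumours had a median of 1.80 for the members and of 0.87 for all 17717 tested genes. Little of that variance lay between the 4 groups, with a median share of 6.54% for the members and 9.98% for all tested genes.

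**Figure D1:**
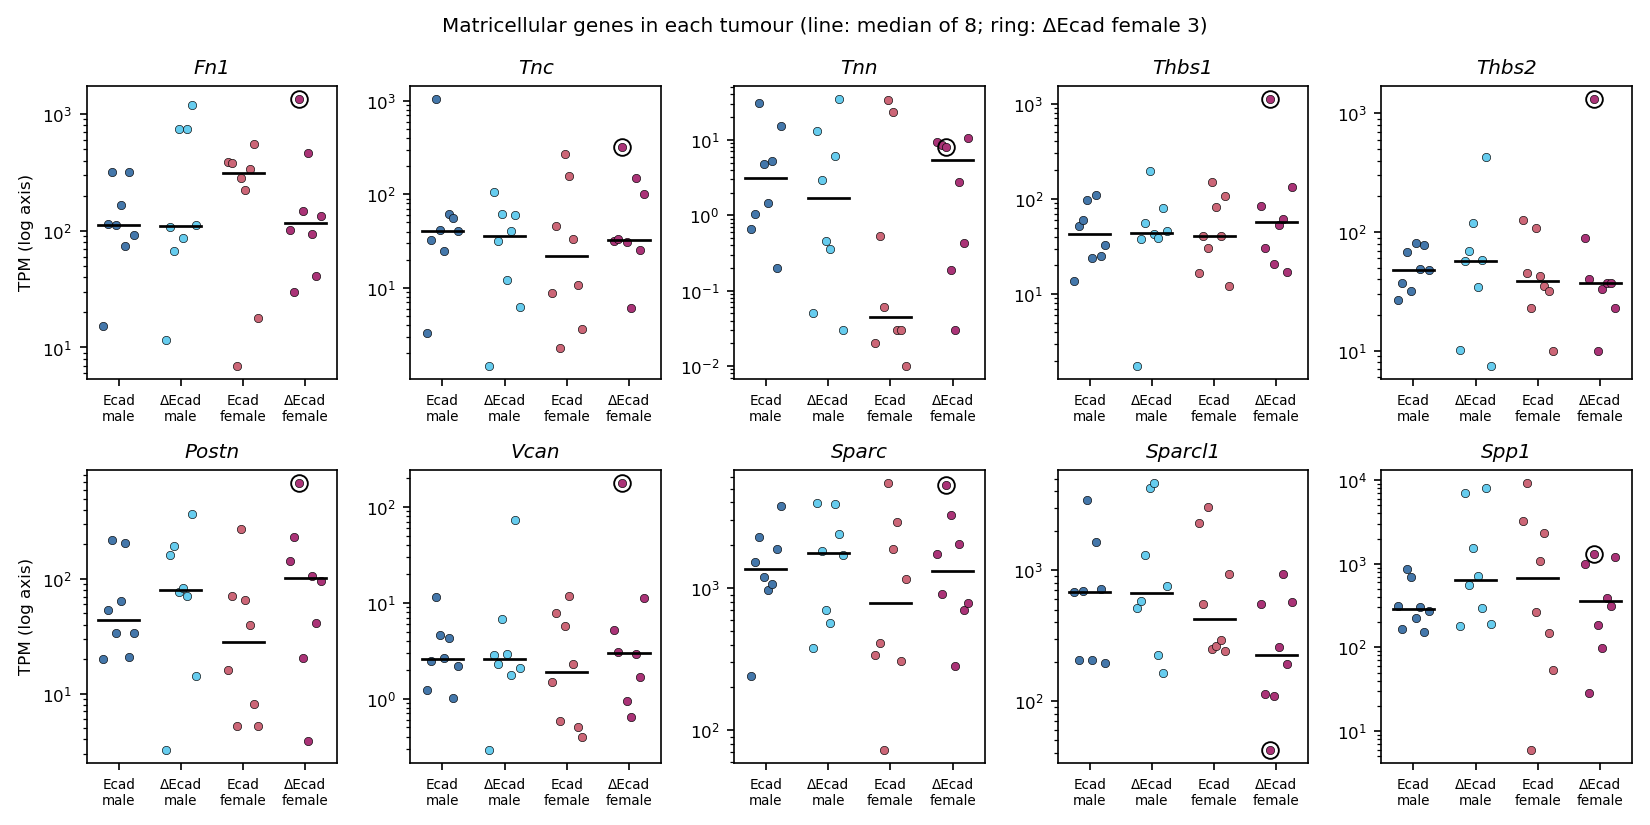
TPM of the 10 genes (log axis) in each of 32 tumours, by group; each point is 1 tumour, each line the median of 8, and the ring marks ΔEcad female 3. The groups overlap in every panel, and the ringed tumour is the highest of all 32 for Fn1, Postn, Thbs1, Thbs2 and Vcan and the lowest for Sparcl1.

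Extreme values gathered in a few tumours. ΔEcad female 3 was the highest of 32 for 5 members and among the top 4 for 7 members. ΔEcad male 7 was among the top 4 for 6 members, and Ecad female 4 for 5. At the other end, ΔEcad male 1 was the lowest of 32 for 4 members, Ecad female 3 was the lowest for 3, and Ecad female 8 was among the bottom 4 for 8 members.

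Both genotypes were compared within each sex, both sexes within each genotype, and the genotype effects between the sexes (interaction), with the edgeR quasi-likelihood test on all 32 tumours. The call required an absolute log2 fold change over 1 together with a p under 0.05 after Benjamini-Hochberg adjustment over 17717 genes. No member was called in any of the 5 comparisons. Between female genotypes, 0 of 10 members were called against a background of 1.20% of all tested genes, and at an unadjusted p under 0.05 there were 4 members against 15.3% of genes. Between male genotypes, the call went to 0 of 10 members and to 0.00% of genes, and 1 member had an unadjusted p under 0.05, against 10.2%. Between the sexes, 0 of 10 members were called in Ecad (background 0.0508%) and 0 of 10 in ΔEcad (background 0.0395%), with 1 and 2 members at an unadjusted p under 0.05 (16.0% and 8.81% of genes). For the interaction, 0 of 10 members and 0.00% of genes were called, with 2 members at an unadjusted p under 0.05, against 17.7%. With DESeq2 the call went to 1 of 10 members, Spp1, for the interaction, where it went to 6.91% of all genes, and to 0 of 10 members between female genotypes (7.23% of genes), male genotypes (0.119%), the sexes in Ecad (5.77%) and the sexes in ΔEcad (0.135%). The median log2 fold change of the 10 members was 0.29 between female genotypes and 0.65 between male genotypes, where that of all tested genes was -0.02 and 0.11. Without the 4 libraries that stood apart it was -0.45 in females, with 1 of 10 members above 0, and 0.07 in males, so the direction in females turned with those libraries. For 0 of 10 members did the TPM ranges of the groups compared lie apart, as they did for 0.0339% of tested genes between female genotypes, 0.0282% between male genotypes, 0.113% between the sexes in Ecad and 0.00564% between the sexes in ΔEcad.

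Fibronectin, encoded by Fn1 (ENSMUSG00000026193, chromosome 1, 71585520 to 71653200, minus strand, GRCm38), is the integrin ligand of the provisional matrix. In Ecad females Fn1 ranged from 6.94 to 555 TPM with a median of 311 TPM. In ΔEcad females it ranged from 30.2 to 1337 TPM with a median of 117 TPM. Of the 8 ΔEcad females, 6 lay below the Ecad female median, and 1 tumour, ΔEcad female 3, lay above every other. The log2 fold change of ΔEcad over Ecad was 0.03 (SE 0.79, adjusted p 0.992) in females, and -0.81 without ΔEcad female 3 (adjusted p 0.664). In males Fn1 ranged from 15.1 to 320.2 TPM (median 113 TPM) in Ecad and from 11.5 to 1186 TPM (median 110 TPM) in ΔEcad. The male medians nearly coincided, while 3 ΔEcad males, at 739, 750 and 1186 TPM, exceeded every Ecad male. The male log2 fold change was 1.36 (SE 0.81, adjusted p 0.549).

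The tenascins are large glycoproteins that loosen cell attachment to fibronectin. Tnc (ENSMUSG00000028364, chromosome 4, 63959785 to 64047015, minus strand) ranged from 2.28 to 269 TPM (median 22.0 TPM) in Ecad females and from 6.02 to 321 TPM (median 32.5 TPM) in ΔEcad females, and 7 of 8 ΔEcad females lay above the Ecad female median. The groups overlapped almost fully, with a log2 fold change of 0.37 (SE 0.96, adjusted p 0.914), and -0.25 without ΔEcad female 3 (adjusted p 0.938). In males Tnc ranged from 3.30 to 1037 TPM (median 40.9 TPM) in Ecad and from 1.46 to 105 TPM (median 36.2 TPM) in ΔEcad. A single tumour, Ecad male 3 at 1037 TPM, set the male value. The male log2 fold change was -1.85 (SE 0.99, adjusted p 0.512), and 0.27 without that tumour (adjusted p 0.924).

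Tnn (ENSMUSG00000026725, chromosome 1, 160085029 to 160153580, minus strand), the gene of tenascin-N, known also as tenascin-W and from bone and tumour stroma, was nearly silent in many tumours. Ecad females fell into a low set of 6, at 0.01 to 0.53 TPM, and a pair at 23.4 and 33.4 TPM. Counts in Ecad females 1, 6, 7 and 8 were 1 to 3. ΔEcad females ranged from 0.03 to 10.5 TPM with a median of 5.38 TPM, and 7 of 8 lay above the Ecad female median of 0.045 TPM. The edgeR log2 fold change, which compares means, was -0.59 (SE 1.37, adjusted p 0.902), while limma voom, which compares means of log values, gave 2.95 (adjusted p 0.550). In males Tnn ranged from 0.20 to 30.9 TPM (median 3.10 TPM) in Ecad and from 0.03 to 34.4 TPM (median 1.69 TPM) in ΔEcad. The male log2 fold change was -0.04 (SE 1.37, adjusted p 0.996), and -0.86 without ΔEcad male 7 (adjusted p 0.837).

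Thrombospondins restrain vessel growth through CD36 and CD47, and thrombospondin-1 can release latent TGF-β. Thbs1 (ENSMUSG00000040152, chromosome 2, 118111876 to 118127133, plus strand) ranged from 12.1 to 150 TPM (median 40.4 TPM) in Ecad females and from 17.2 to 1108 TPM (median 57.0 TPM) in ΔEcad females. In ΔEcad females the next value below 1108 TPM was 133 TPM. Its log2 fold change was 1.46 (SE 0.71, adjusted p 0.313), and -0.16 without ΔEcad female 3 (adjusted p 0.928). Thbs2 (ENSMUSG00000023885, chromosome 17, 14665500 to 14694235, minus strand) ranged from 9.90 to 125 TPM (median 38.8 TPM) in Ecad females and from 9.95 to 1310 TPM (median 37.2 TPM) in ΔEcad females. Again the medians were close and 1 tumour, ΔEcad female 3, stood far above. The Thbs2 log2 fold change was 1.79 (SE 0.76, adjusted p 0.227), and -0.38 without that tumour (adjusted p 0.793).

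In Ecad and ΔEcad males, Thbs1 had medians of 42.4 and 44.3 TPM, with ranges of 13.7 to 110 TPM and 1.76 to 196 TPM. Thbs2 had medians of 48.3 and 57.4 TPM, with ranges of 26.9 to 81.0 TPM and 7.47 to 431 TPM. The ΔEcad males were the more scattered group for both genes, at both ends. The male log2 fold change was 0.29 (SE 0.69, adjusted p 0.896) for Thbs1 and 0.90 (SE 0.74, adjusted p 0.673) for Thbs2, which was 0.09 without ΔEcad male 7 (adjusted p 0.969).

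Periostin, the product of Postn (ENSMUSG00000027750, chromosome 3, 54361109 to 54391037, plus strand), binds integrins and collagen and is made by activated fibroblasts. Postn ranged from 5.18 to 272 TPM (median 28.0 TPM) in Ecad females and from 3.89 to 681 TPM (median 101 TPM) in ΔEcad females. Of the 8 ΔEcad females, 6 lay above the Ecad female median. Its log2 fold change was 1.42 (SE 0.82, adjusted p 0.442), falling to 0.65 without ΔEcad female 3 (adjusted p 0.751) and reaching 2.33 without Ecad female 4 (adjusted p 0.137). In males the ranges were 20.1 to 216 TPM (median 44.0 TPM) in Ecad and 3.22 to 369 TPM (median 80.0 TPM) in ΔEcad, and 6 of 8 ΔEcad males lay above the Ecad male median. The male log2 fold change was 0.67 (SE 0.81, adjusted p 0.777).

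Versican, encoded by Vcan (ENSMUSG00000021614, chromosome 13, 89655312 to 89742509, minus strand), is a large proteoglycan that binds hyaluronan. Vcan ranged from 0.40 to 11.8 TPM (median 1.89 TPM) in Ecad females and from 0.64 to 177 TPM (median 2.96 TPM) in ΔEcad females. Among the other 7 ΔEcad females the highest value was 11.2 TPM, below the highest Ecad female. The log2 fold change of 2.59 (SE 1.04, adjusted p 0.192) became -0.13 without ΔEcad female 3 (adjusted p 0.962). Males showed the same form. Vcan ranged from 1.02 to 11.4 TPM (median 2.57 TPM) in Ecad males and from 0.29 to 73.7 TPM (median 2.60 TPM) in ΔEcad males, where the second highest value was 6.71 TPM. The male log2 fold change of 1.54 (SE 1.00, adjusted p 0.585) became -0.33 without ΔEcad male 7 (adjusted p 0.904).

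**Figure D2:**
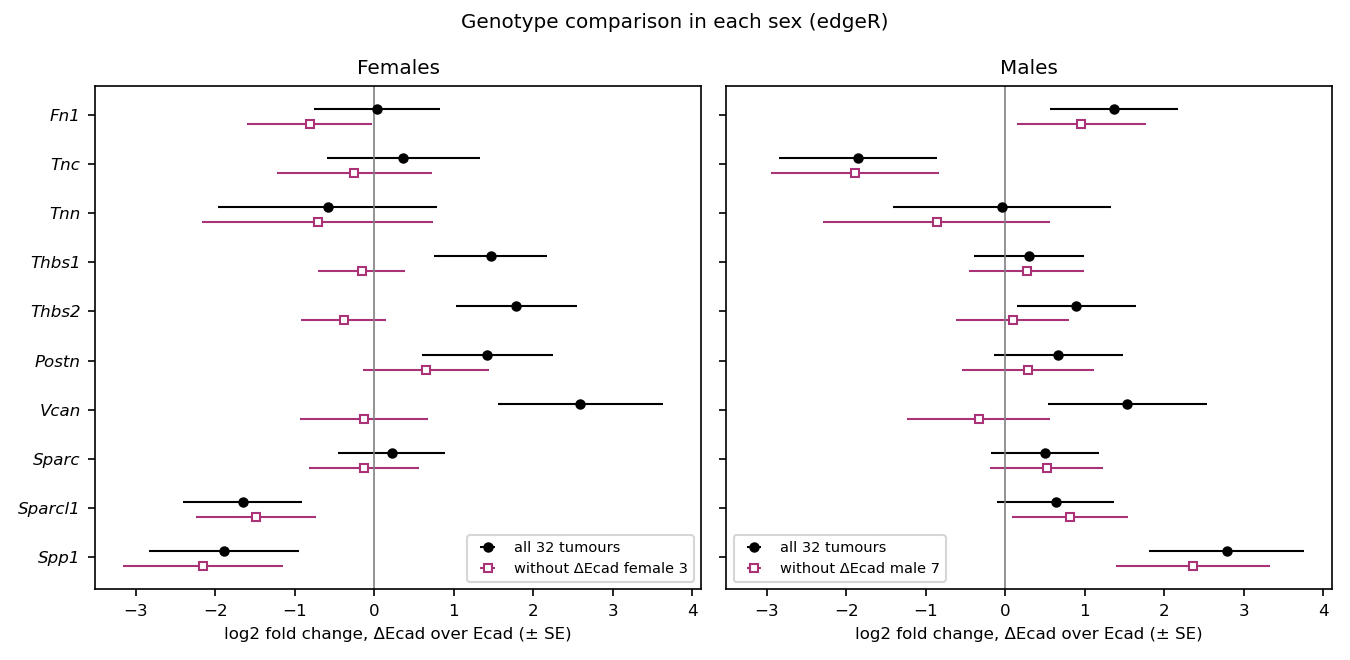
Log2 fold change of ΔEcad over Ecad (x axis, edgeR, bars: SE) for the 10 genes in females (left) and males (right); filled circles use all 32 tumours, open squares leave out ΔEcad female 3 (left) or ΔEcad male 7 (right). Without ΔEcad female 3 the female values of Thbs1, Thbs2 and Vcan go from 1.46, 1.79 and 2.59 to -0.16, -0.38 and -0.13.

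The SPARC family binds collagen and calcium and is counter-adhesive. Sparc (ENSMUSG00000018593, chromosome 11, 55394500 to 55423183, minus strand) was abundant in nearly all tumours, at 72.6 to 5446 TPM (median 784 TPM) in Ecad females, 281 to 5292 TPM (median 1321 TPM) in ΔEcad females, 241 to 3757 TPM (median 1358 TPM) in Ecad males and 381 to 3953 TPM (median 1764 TPM) in ΔEcad males. All 4 ranges overlapped over most of their length. The log2 fold change of ΔEcad over Ecad was 0.22 (SE 0.68, adjusted p 0.928) in females and 0.50 (SE 0.68, adjusted p 0.802) in males.

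Sparcl1 (ENSMUSG00000029309, chromosome 5, 104079111 to 104113733, minus strand), the gene of hevin, which is known from vessel walls, ranged from 241 to 3050 TPM (median 421 TPM) in Ecad females and from 42.3 to 936 TPM (median 226 TPM) in ΔEcad females. ΔEcad over Ecad females had a log2 fold change of -1.65 (SE 0.75, adjusted p 0.265), and -0.97 without Ecad female 3, the highest Ecad female (adjusted p 0.670). In males Sparcl1 ranged from 196 to 3423 TPM (median 684 TPM) in Ecad and from 163 to 4602 TPM (median 667 TPM) in ΔEcad, with a log2 fold change of 0.63 (SE 0.73, adjusted p 0.765). The ΔEcad females were the lowest group, and 7 of 8 lay below the ΔEcad male median. The log2 fold change of ΔEcad females over ΔEcad males was -2.19 (SE 0.76, adjusted p 0.484), and the interaction was -2.29 (SE 1.04, adjusted p 0.242). Without Ecad female 3 the interaction was -1.61 (adjusted p 0.438), and without Ecad male 4 it was -3.14 (adjusted p 0.0947). The 2 ΔEcad males with the most Sparcl1 held 4254 and 4602 TPM.

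Osteopontin, the product of Spp1 (ENSMUSG00000029304, chromosome 5, 104435118 to 104441050, plus strand), is a phosphoprotein ligand of integrins and CD44 made by macrophages and many tumour cells. It had the widest spread of the highly expressed members. In Ecad males Spp1 stayed within 153 to 859 TPM (median 289 TPM), and in ΔEcad males it ranged from 179 to 8161 TPM (median 640 TPM). Ecad females ranged from 5.93 to 9155 TPM (median 669 TPM), and ΔEcad females from 28.5 to 1298 TPM (median 355 TPM). The 2 groups with the high tumours were thus ΔEcad males and Ecad females, and all 4 ranges overlapped.

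The Spp1 log2 fold change of ΔEcad over Ecad was 2.79 in males (SE 0.98, adjusted p 0.416) and -1.89 in females (SE 0.94, adjusted p 0.340). That of females over males was 2.31 in Ecad (SE 0.96, adjusted p 0.221) and -2.36 in ΔEcad (SE 0.96, adjusted p 0.527). Without ΔEcad male 2, whose sex label is in doubt, the male value was 2.03 (adjusted p 0.648) and the ΔEcad sex value -1.60 (adjusted p 0.701). Without all 4 libraries that stood apart these were 0.64 (adjusted p 0.791) and -0.48 (adjusted p 0.875). Without Ecad female 2 the female value was -1.02 (adjusted p 0.687) and the Ecad sex value 1.44 (adjusted p 0.472). The interaction, the female genotype effect less the male one, was -4.67 (SE 1.36, adjusted p 0.0641). Spp1 ranked 459 by p among 17717 genes there, and the smallest adjusted p of any gene was 0.0509. DESeq2 gave nearly the same value, -4.58, with an adjusted p of 0.00508, and limma voom gave -2.20 with an adjusted p of 0.557. With edgeR, the adjusted p was 0.0484 without Ecad female 5, 0.0387 without ΔEcad male 3 and 0.0465 without ΔEcad female 3. Over all 32 fits with 1 tumour left out, the adjusted p ran from 0.0387 to 0.122. The share of all genes called in those fits is not given here. A few tumours carried much of the size. The male value rested on ΔEcad males 2 and 7, at 7096 and 8161 TPM, and the interaction was -2.99 (adjusted p 0.131) once ΔEcad males 2 and 7, Ecad female 3 and ΔEcad female 3 were left out together. Without Ecad female 2, at 9155 TPM, it was -3.80 (adjusted p 0.108). Of the genes that overlap members, Gm42793 lies over Spp1 on the same strand, so their reads may be shared. Fn1, Tnc, Thbs1, Vcan and Sparcl1 are overlapped on the opposite strand, where reads may be shared if counting ignored strand.

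**Figure D3:**
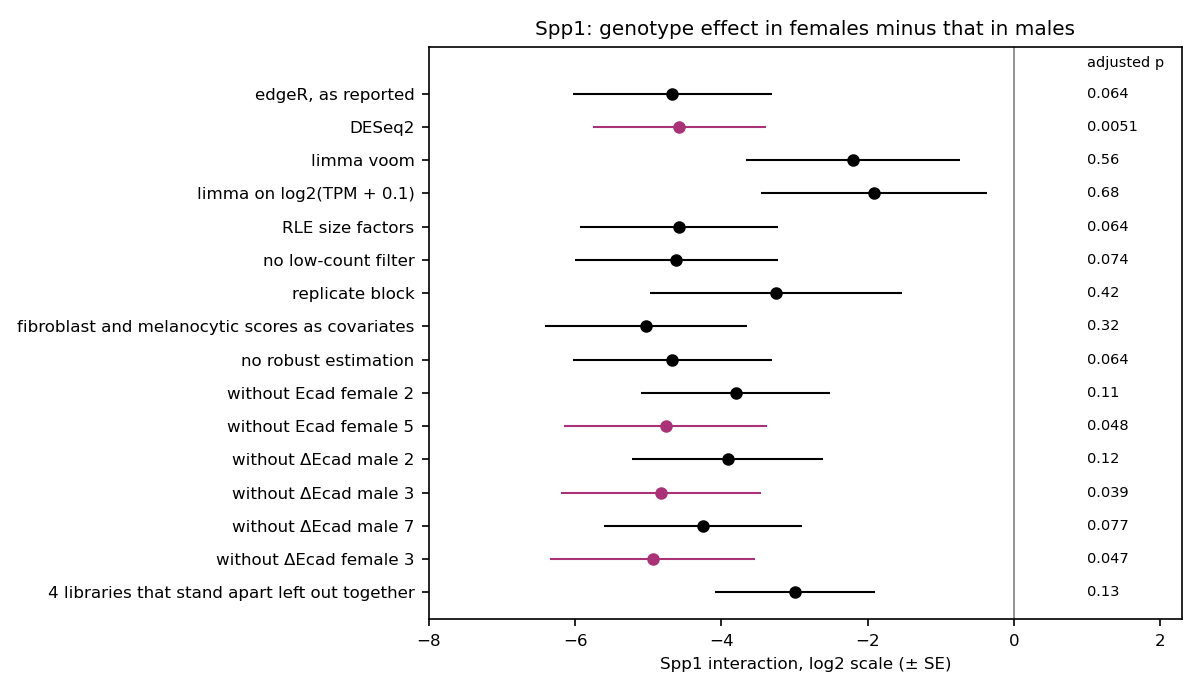
Interaction of genotype and sex for Spp1 on the log2 scale (x axis, bars: SE) by test or set of tumours, with the adjusted p of each at the right; purple marks an adjusted p under 0.05. The value is negative throughout, from -1.92 to -5.03, and passes 0.05 with DESeq2 and without ΔEcad male 3, ΔEcad female 3 or Ecad female 5. Only some of the 32 fits with 1 tumour left out are drawn, among them those named here as passing. The share of purple points is therefore not that of all 32 fits. Over all 32 the adjusted p ran from 0.0387 to 0.122.

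The remaining sex comparisons gave smaller values. In Ecad tumours the other 9 members had log2 fold changes of females over males from -1.38 to 0.86, with adjusted p of 0.504 to 0.990. In ΔEcad tumours the other 8 members had values from -0.79 to 1.39, with adjusted p of 0.575 to 0.951. The interaction for the other 8 members lay between -1.33 and 2.22, with adjusted p of 0.409 to 0.916.

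Levels of the members were compared with each other over the 32 tumours, as a description without a test, since all values of a tumour share its library and cell make-up. Of 45 pairs, 37 had a Spearman rho above 0, and the median rho was 0.43, which was 0.28 without the 4 libraries that stood apart. The 6 pairs above 0.7 were formed by the same 4 genes, Tnc, Postn, Tnn and Vcan, led by Postn and Tnn at 0.80 and Postn and Vcan at 0.77. Without the 4 libraries that stood apart, rho for these 6 pairs was 0.66 to 0.78. Sparcl1 had a median rho of -0.27 against the other 9 members, and its lowest value, -0.36, was with Tnn. Without those 4 libraries its median was -0.07, from -0.28 with Tnn to 0.41 with Spp1. Sparc and Sparcl1, of 1 family, had a rho of -0.35, Thbs1 and Thbs2 one of 0.30, and Tnc and Tnn one of 0.71.

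**Figure D4:**
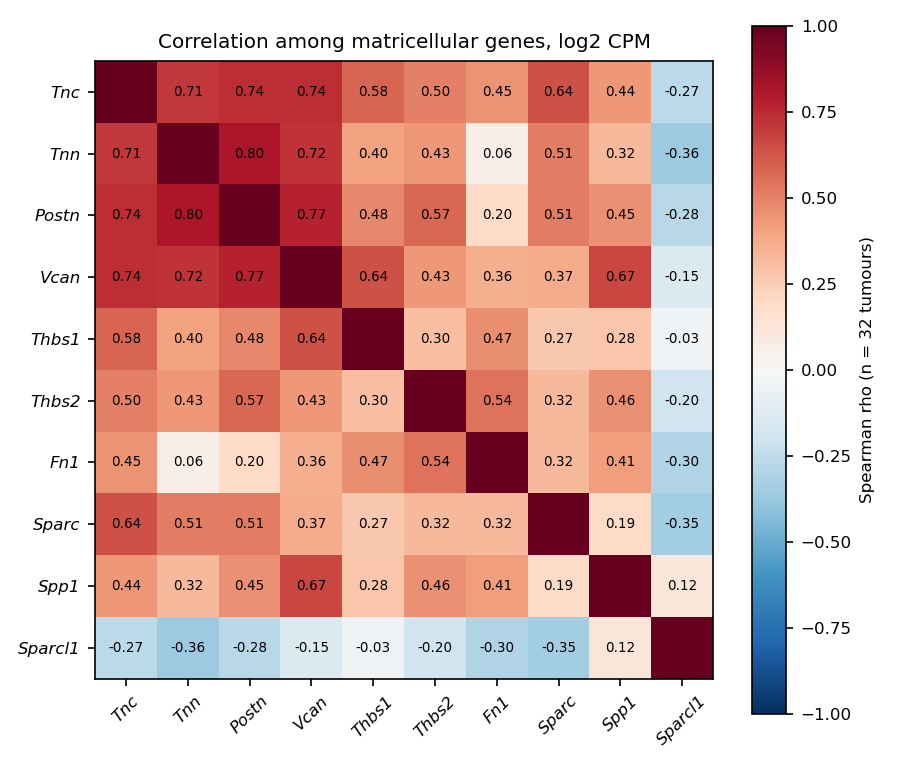
Spearman rho between each pair of the 10 genes over 32 tumours (log2 CPM), red for positive and blue for negative values. Tnc, Tnn, Postn and Vcan form a block with rho from 0.71 to 0.80, and Sparcl1 is negative with 8 of the other 9 genes.

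Promoter sequence is shown for the 4 genes of that block, because they varied together. RefSeq (GRCm38.p6) gave a start site for 7 of the 10 members, without Fn1, Thbs1 and Sparcl1, and the window nearest the annotated start was taken. Each line holds the 250 bases before the start site, 5′ to 3′ on the strand of the gene. Capitals mark the matches to 5 motifs, each searched on both strands. The TATA box was searched as TATAAA. The GC box was searched as GGGCGG. The AP-1 motif was searched as TGAGTCA, with TGACTCA as its other strand. The TEAD motif was searched as GGAATG. The core of the M-box, which MITF binds, was searched as CATGTG. No matches overlap in these windows. The windows are chr4:64047016-64047265 for Tnc, chr3:54360857-54361106 for Postn, chr1:160153576-160153825 for Tnn and chr13:89742513-89742762 for Vcan.
Tnc: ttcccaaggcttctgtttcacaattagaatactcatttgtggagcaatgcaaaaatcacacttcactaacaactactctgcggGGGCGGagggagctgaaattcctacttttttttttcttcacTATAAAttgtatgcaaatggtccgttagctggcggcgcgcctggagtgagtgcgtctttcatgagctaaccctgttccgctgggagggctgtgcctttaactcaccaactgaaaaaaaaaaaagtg
Postn: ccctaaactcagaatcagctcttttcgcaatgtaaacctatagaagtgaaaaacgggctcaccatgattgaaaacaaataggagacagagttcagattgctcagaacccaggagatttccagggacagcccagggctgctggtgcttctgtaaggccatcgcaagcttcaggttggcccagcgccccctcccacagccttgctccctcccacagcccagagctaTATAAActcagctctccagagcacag
Tnn: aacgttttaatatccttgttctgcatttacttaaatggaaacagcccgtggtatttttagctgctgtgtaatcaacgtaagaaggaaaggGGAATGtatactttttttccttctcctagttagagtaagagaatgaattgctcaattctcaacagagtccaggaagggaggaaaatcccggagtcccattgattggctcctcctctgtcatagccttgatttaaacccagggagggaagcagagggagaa
Vcan: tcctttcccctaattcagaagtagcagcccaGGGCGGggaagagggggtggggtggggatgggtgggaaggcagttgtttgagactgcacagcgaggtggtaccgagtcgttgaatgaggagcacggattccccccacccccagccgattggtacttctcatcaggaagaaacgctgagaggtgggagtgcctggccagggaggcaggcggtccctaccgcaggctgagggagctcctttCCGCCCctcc
The TATA box letters began 26 bases before the Postn start and 126 bases before that of Tnc, and 12.4% of 32851 promoter windows hold them. GC box letters were found at 1 place in Tnc and 2 in Vcan (32.7% of windows), and the TEAD letters at 1 place in Tnn (12.6%). The AP-1 letters (4.46%) and the M-box core (12.3%) were not in these 4 windows. No motif was shared by all 4, and GC content ran from 42.0% in Tnn to 62.4% in Vcan.

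For each member the 3 tested genes with the most similar order of tumours were listed, again as a description over 32 tumours. Postn had P4ha3, a collagen prolyl hydroxylase gene (rho 0.91), and the fibrillar collagen gene Col3a1 (0.88) among its 3. Tnn was most like Lrrc15, a marker of activated fibroblasts (0.89), Gm17501 (0.89) and P4ha3 (0.87). Vcan was most like Runx1 (0.89), the collagen gene Col5a2 (0.85) and Stk17b (0.84). Tnc was most like Steap1 (0.84), the bradykinin receptor gene Bdkrb1 (0.84) and Ccn4, another matricellular gene (0.82). Genes of collagen or its modification were thus among the nearest 3 of Postn, Tnn and Vcan.

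The other 6 members had neighbours of other kinds. Sparc was most like Frmd6 (0.85), Psat1 of serine synthesis (0.84) and Grhpr (0.82). Sparcl1 was most like Ttc38 (0.84), Rnf13 (0.80) and the heparanase gene Hpse (0.80). Spp1 was most like Stk17b (0.78), Gm42793 (0.78), which overlaps it, and Tceal8 (0.75). Thbs1 was most like Il4ra (0.77), the chemokine gene Cxcl1 (0.77) and Inhba, of activin A (0.75). Fn1 was most like Zfp516 (0.78), Tmem173 (0.78) and Fam53c (0.77), and Thbs2 most like Abcc1 (0.70), Syne3 (0.65) and Gm20544 (0.65). No member was among the 3 nearest genes of another member.

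Members were then related to marker scores of 3 cell types (mean log2 CPM over 10 fibroblast, 9 macrophage and 9 melanocytic marker genes), in 30 relations over 32 tumours with two-sided permutation tests and Benjamini-Hochberg adjustment over the 30. With the fibroblast score, 4 members had an adjusted p under 0.05. For Tnn, r (Pearson) was 0.79 and rho (Spearman) 0.74, with adjusted permutation p of 0.00015 and 0.00045. Postn had r 0.74 and rho 0.70, with the same adjusted permutation p of 0.00015 and 0.00045, and the unadjusted p of both r values was the smallest that the permutations can give (1e-05). Vcan had r 0.61 and rho 0.53, with adjusted permutation p of 0.0026 and 0.0193. Tnc had r 0.50 and rho 0.40, with adjusted permutation p of 0.0295 and 0.143. These relations were positive within each of the 4 groups for all 4 genes, with r from 0.44 to 0.89 for Postn and from 0.59 to 0.97 for Tnn. For Tnc r ran from 0.13 to 0.92 and for Vcan from 0.19 to 0.86, both lowest in ΔEcad females. Spp1 and Thbs2, which did not pass here, were also positive in all 4 groups. Without the 2 tumours farthest from the median score, r was 0.74 for Tnn, 0.70 for Postn and 0.56 for Vcan. For Tnc, r fell from 0.50 to 0.40 (adjusted permutation p 0.158), so the relation lost its call. The rho of Tnc fell from 0.40 to 0.29 (adjusted permutation p 0.424). By rank, Vcan lost its call in the same setting, with a rho of 0.45 and an adjusted permutation p of 0.0959, and without the 4 libraries that stood apart (adjusted permutation p 0.0673). In bulk tumours, fewer cells of a type and less RNA per cell cannot be told apart.

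**Figure D5:**
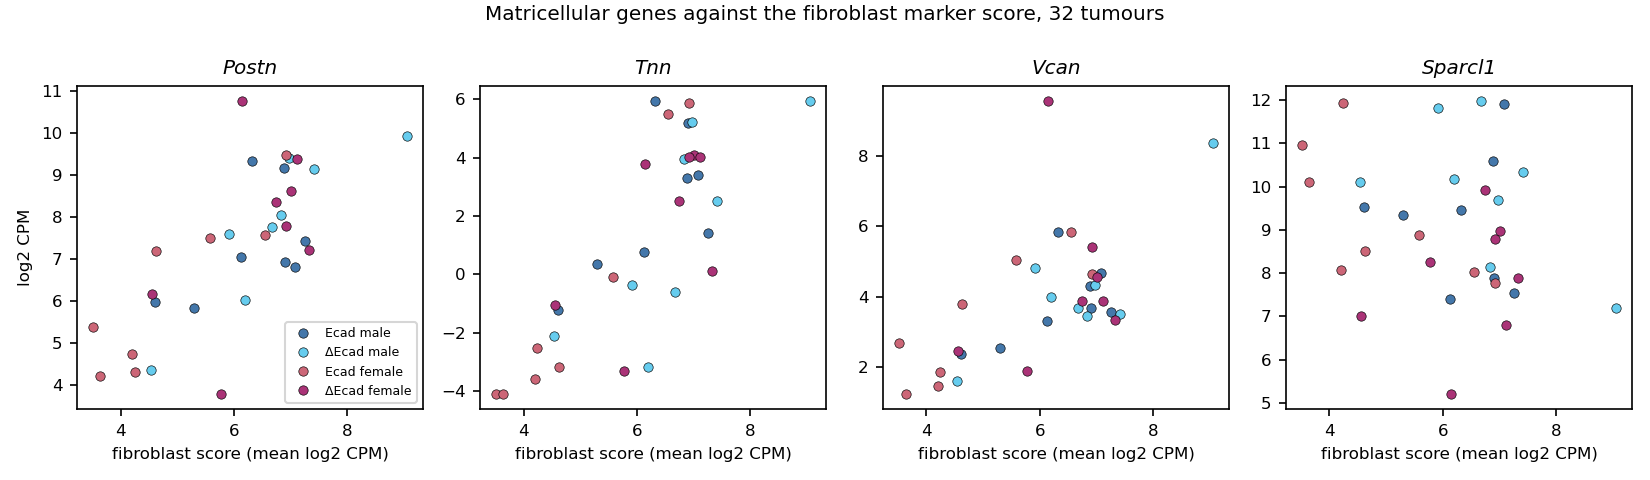
Log2 CPM of Postn, Tnn, Vcan and Sparcl1 (y axis) against the fibroblast marker score (x axis, mean log2 CPM of 10 genes) in 32 tumours, coloured by group. Postn, Tnn and Vcan rise with the score (Pearson r 0.74, 0.79 and 0.61), and Sparcl1 shows an r of -0.24. For Vcan, ΔEcad female 3 (9.56) and ΔEcad male 7 (8.35) lie far above the other tumours. ΔEcad male 7 also has the highest fibroblast score (9.06).

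The other 6 members had a Pearson r with the fibroblast score between -0.24 (Sparcl1) and 0.37 (Thbs1, Sparc and Thbs2 alike), with adjusted permutation p of 0.146 to 0.475. On log2(TPM + 0.1), Thbs1 and Thbs2 passed as well, with r of 0.49 and 0.48 (adjusted permutation p 0.0230 and 0.0251). By rank they did not pass on that scale (adjusted permutation p 0.0541 and 0.0611). No member passed for the macrophage score, where r lay between -0.33 (Sparc) and 0.34 (Sparcl1), or for the melanocytic score by Pearson r. By rank, Sparc followed the melanocytic score, with a rho of 0.52 (adjusted permutation p 0.0216), and its r was 0.16 (adjusted permutation p 0.475). The melanocytic score of ΔEcad male 7 was 0.36, where the other ΔEcad males lay between 9.53 and 11.1, and without the 2 tumours farthest from the median the r of Sparc was 0.50 (adjusted permutation p 0.0356). Vcan had an r of -0.51 with the melanocytic score (adjusted permutation p 0.0955), and -0.20 without those tumours. Spp1, though a macrophage product, had an r of 0.06 with the macrophage score.

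Markers of 10 cell types were followed through the female genotype comparison, where 11.2% of all tested genes were higher in ΔEcad at an unadjusted p under 0.05 and 1.16% were called higher. All 10 fibroblast markers had a log2 fold change above 0, with a median of 1.46, 5 of 10 higher at an unadjusted p under 0.05 and 0 called. In Ecad females they summed to between 95.6 and 4267 TPM, and in ΔEcad females to between 414 and 9436 TPM, the highest value being that of ΔEcad female 3, whose fibroblast score ranked only 19 of 32, with Dcn at 2.24 TPM. Without the 4 libraries that stood apart the fibroblast median was 0.75, with 3 of 10 at an unadjusted p under 0.05. For that fit the share of all genes at that p is not given here. Of 6 pericyte and smooth muscle markers, 3 were called higher, and 1 without ΔEcad female 3 alone. That tumour held 5568 TPM of them, where the next ΔEcad female held 385 TPM and the highest Ecad female 402 TPM.

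Marker RNA of tissue around the tumour was uneven between the female groups, though their ranges overlapped. Keratinocyte markers, 7 of 8 higher at an unadjusted p under 0.05, summed to a median of 1.64 TPM in Ecad females (0.19 to 1702 TPM) and of 6131 TPM in ΔEcad females (1.67 to 32510 TPM). Skeletal muscle markers, 2 of 6 higher at that p, had medians of 14.5 and 992 TPM, and adipocyte markers, 5 of 5, medians of 28.7 and 128 TPM. The summed medians in Ecad and then ΔEcad females were 614 and 1366 TPM for macrophage markers (1 of 9 higher), 6.09 and 25.7 TPM for T cell markers (0 of 6), 88.3 and 158 TPM for endothelial markers (2 of 8), 171 and 143 TPM for Schwann cell markers (2 of 4 tested) and 30803 and 20394 TPM for melanocytic markers (0 of 9 higher and 1 lower). With the fibroblast and melanocytic scores as covariates, the female log2 fold change was 0.63 for Postn, 1.10 for Thbs1, 1.42 for Thbs2 and 1.79 for Vcan, with adjusted p of 0.769 to 0.921. The part of other cell types in the members' values was not otherwise tested.

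Other matricellular genes were taken from a list of 25, of which 18 were tested. In females 1 was called higher in ΔEcad and none lower (1.16% and 0.0452% of all genes), and 8 were higher at an unadjusted p under 0.05, against 11.2% of genes. The median log2 fold change of the 18 was 1.19, and -0.02 over all tested genes. It was 0.68 without the 4 libraries that stood apart, where 19 of the list were tested and 4 were higher at an unadjusted p under 0.05. The share of all genes at that p without those libraries is not given here, so the 4 have no background. The called gene was Smoc1 (ENSMUSG00000021136, chromosome 12, 81026808 to 81186414, plus strand), a calcium-binding relative of Sparc that antagonises BMP signalling. Smoc1 was at 0.03 to 2.49 TPM (median 0.16 TPM) in Ecad females and at 0.57 to 57.1 TPM (median 5.60 TPM) in ΔEcad females. The groups met only in part, with a log2 fold change of 4.93 (SE 1.12, adjusted p 0.0394). That call was near its threshold. It held without ΔEcad female 3 (4.29, adjusted p 0.0332) and was lost without any 1 of 10 tumours, namely Ecad females 1, 2, 3, 4, 6, 7 and 8 and ΔEcad females 1, 2 and 7, with adjusted p of 0.0604 to 0.104. Next in order was Smoc2, its close relative, with a median of 7.64 TPM in Ecad females, one of 36.6 TPM in ΔEcad females and a log2 fold change of 1.92 (SE 0.55, adjusted p 0.0593).

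In males none of the 18 was called (0.00% of all genes), and 2 had an unadjusted p under 0.05, against 10.2% of genes. Comp, of the thrombospondin family, had a male log2 fold change of 3.23 (SE 1.20, adjusted p 0.427), with 1 ΔEcad male at 140 TPM, and Ccn3 one of 1.85 (SE 0.82, adjusted p 0.454). For the interaction the smallest p belonged to Smoc1, at 6.49 (SE 1.46, adjusted p 0.0509), and Tnxb, of the tenascin family, at 3.54 (SE 1.12, adjusted p 0.0801). Neither passed the call. Over the 10 lists of cell type markers, the median interaction ran from -0.89 (melanocytic) to 7.11 (keratinocyte), and it was -0.16 over all tested genes. The part of cell content in the Smoc1 and Tnxb values was not tested.

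Receptors of matricellular proteins formed a list of 19 genes, all tested, and 0 were called in any comparison. Itgb3, the β3 integrin chain that binds osteopontin, fibronectin and thrombospondin, had medians of 29.4 TPM in Ecad females, 17.8 TPM in ΔEcad females, 18.5 TPM in Ecad males and 25.4 TPM in ΔEcad males. Its highest tumours, at 112 TPM and 118 TPM, were an Ecad female and a ΔEcad male, the 2 groups that also held the highest Spp1 values. The Itgb3 interaction was -2.51 (SE 0.74, adjusted p 0.0658). Itgb6, an epithelial integrin chain, was at or below 5.32 TPM in every tumour, with an interaction of 6.39 (SE 1.81, adjusted p 0.0610). Of the keratinocyte markers, 8 of 8 had a positive interaction at an unadjusted p under 0.05, against 17.7% of genes in either direction. Whether keratinocyte content set the Itgb6 value was not tested. The female log2 fold change was 4.06 for Itgb6 (SE 1.33, adjusted p 0.0961) and -1.30 for Itgb3 (SE 0.52, adjusted p 0.193). In males it was 1.21 for Itgb3 (SE 0.52, adjusted p 0.448) and 0.78 for Itgb5 (SE 0.41, adjusted p 0.507).

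Proteases and cross-linkers that act on these proteins formed a list of 18 genes, of which 17 were tested and 0 were called in any comparison. In females the smallest p belonged to the versican-cleaving protease gene Adamts5, with a log2 fold change of 1.23 (SE 0.43, adjusted p 0.119), and to the cross-linking enzyme gene Loxl1, at 2.20 (SE 0.79, adjusted p 0.133). In Ecad and then ΔEcad females, the medians were 3.39 and 11.9 TPM for Adamts5 and 13.8 and 40.3 TPM for Loxl1. In males the smallest p belonged to Adamts20, at -1.18 (SE 0.49, adjusted p 0.446), and Mmp14, a membrane-bound matrix protease, at 0.60 (SE 0.28, adjusted p 0.476). For the interaction they were Adamts1, at -2.14 (SE 0.89, adjusted p 0.193), and Adamts15, at 2.47 (SE 1.06, adjusted p 0.209).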

How the data were processed

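RNA of 32 primary melanomas was sequenced, and the authors deposited 2 tables for each tumour, of raw counts per Ensembl gene and of TPM. Per the labels' processing notes, reads were checked with FastQC 0.11.5 and aligned with STAR to mm10 (GRCm38.p5), where GENCODE annotation gave the genes, and counting is not stated to use strand, so reads of overlapping genes may be shared. The deposited TPM followed the deposited counts with 1 length per gene, within 0.0685% over 996 genes with over 2000 counts in every tumour. Symbols and coordinates came from GENCODE M21 (GRCm38), which named 50376 of 50600 identifiers.

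Counts were scaled by TMM and tested with the edgeR 4.0.16 quasi-likelihood test in R 4.3.3, in 1 fit of 4 groups, for 17717 genes past edgeR's filter on low counts. All 10 members passed it. Calls needed an absolute log2 fold change over 1 at an adjusted p under 0.05. Log2 CPM used a prior count of 1, and the common dispersion was 0.624. Alternatives used DESeq2 1.42.0 and limma 3.58.1 (voom, and log2(TPM + 0.1)). Relations to the 3 marker scores used 100000 permutations (numpy 2.4.6, scipy 1.17.1). Methods were tested on simulated data.

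The 10 members and the lists (3 of related genes, 10 of cell type markers) were chosen with earlier results of these data known. Besides the members, Cdh1 and markers, the genes named were the 3 nearest of each member by Spearman rho and, from each list of related genes, those called and the 2 with the smallest p in each genotype comparison and the interaction. 1 gene that this rule names is not reported here. The alternative of leaving out 4 libraries together was chosen after seeing the data.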

Additional observations from a re-analysis of the deposited data

Results flagged for a closer look

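In 52 groups of 8 values (10 members and 3 marker scores in 4 groups), 6 had a highest or lowest tumour set far from the rest by Dixon's criterion, and chance gives about 1 in 20 groups. ΔEcad female 3 accounted for 4 of the 6. Its Thbs1 value was 10.95 log2 CPM, with the other ΔEcad females at 5.45 to 7.73. Its Thbs2 value was 11.16 log2 CPM, with the others at 4.57 to 7.37. Its Vcan value was 9.56 log2 CPM, with the others at 1.90 to 5.42. Its macrophage score was -2.23, with the others at 3.31 to 7.02. Thbs1 was low in ΔEcad male 1, at 2.96 log2 CPM, where the other ΔEcad males lay between 6.28 and 8.43. The melanocytic score of ΔEcad male 7 was 0.36, with the others at 9.53 to 11.13. What set these tumours apart was not tested.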

How the results depend on the processing

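Of 248 values of the 25 reported fold changes under alternatives other than leaving out 1 tumour, 225 kept their sign and 23 did not, and the cause of each was not tested. With DESeq2 the log2 fold change in females was -0.29 for Thbs2 and -0.11 for Vcan, and in males 0.20 for Tnc and -0.35 for Vcan. With limma voom it was -0.16 for Fn1 and 2.95 for Tnn in females. On log2 TPM it was -0.078 for Fn1 and 1.80 for Tnn in females and -0.12 for Thbs1 in males. With the 2 scores as covariates it was -0.17 for Postn and -0.33 for Vcan in males. Without the 4 libraries that stood apart it was -1.0 for Fn1, -0.43 for Tnc, -0.31 for Sparc, -0.23 for Thbs1, -0.47 for Thbs2 and -0.28 for Vcan in females, and -0.086 for Postn, -0.022 for Thbs2 and -0.43 for Vcan in males. Pearson r with the fibroblast score was then -0.11 for Fn1 and -0.038 for Spp1. With 1 tumour left out, the female values ranged from -0.81 to 0.31 for Fn1, -0.25 to 1.11 for Tnc, -0.12 to 0.72 for Sparc, -0.16 to 1.73 for Thbs1, -0.38 to 2.05 for Thbs2, -0.79 to 0.39 for Tnn and -0.13 to 3.13 for Vcan. The male values ranged from -2.43 to 0.27 for Tnc, -0.085 to 0.58 for Thbs1, -0.86 to 0.76 for Tnn and -0.33 to 2.04 for Vcan. The count of members called for the interaction was 1 with DESeq2 and 0 to 1 with 1 tumour left out. DESeq2 called 1281, 21, 1023, 24 and 1225 genes in the 5 comparisons, in the order female genotypes, male genotypes, sexes in Ecad, sexes in ΔEcad and interaction, and limma voom called 1, 0, 8, 5 and 0, with no member among them. Between female genotypes edgeR called 1.20% of genes, 0.00557% without Ecad female 3 and 2.69% without ΔEcad female 3. The Smoc1 call was lost with limma voom (adjusted p 0.317), on log2 TPM (0.281), with only the tumours compared (0.176), with the replicate block (0.126), with the covariates (0.405) and without the 4 libraries (0.0517). For relations, Thbs1 and Thbs2 passed for the fibroblast score on log2 TPM by Pearson r. For the macrophage score, 1 member (Sparc) passed with each group centred on its mean, with a negative r of -0.45 (adjusted permutation p 0.0466). For the melanocytic score, 1 (Sparc) passed without the 2 farthest tumours and without the 4 libraries.

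Tumour numbers are shared between groups, and of 48 pairs with the same number 18 had deviations correlated above 0.1 (r from -0.55 to 0.42, median 0.04). Pairs with different numbers were not compared, so whether samples of 1 number share more than that number cannot be told. With the replicate block 0 members were called in each comparison, and the log2 fold change was -0.42 for Fn1 and 1.40 for Tnn in females and 0.46 for Tnn in males.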
